A study of Xenopus tropicalis with 30 samples.

Results

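Divergent start site pairs are neighbouring transcription start sites that lie back to back, with transcription leaving to the left from a minus-strand site and to the right from a plus-strand site. They were taken from a start site table of the frog *Xenopus tropicalis*. A pair was formed on the 10 chromosomes wherever a minus-strand site lay 0 to 1000 bases below a plus-strand site and no other start site lay between their positions. The rule found 2143 pairs, which held 4280 of the 61965 start sites on chromosomes (6.91%). Of these sites 2140 lay on each strand, and 6 belonged to 2 pairs each. Levels took no part in the rule. The pairs were set beside the other neighbours within the same distance: 19373 same-strand pairs and 1903 facing pairs, whose plus-strand site lies below the minus-strand one so that transcription runs towards the partner.

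At many vertebrate promoters RNA polymerase II starts on both strands from the edges of a shared stretch of open chromatin. The sense product becomes a stable mRNA, while the upstream antisense product is often short, poorly polyadenylated and quickly degraded by the nuclear exosome. Other divergent pairs are bidirectional promoters that serve a pair of genes placed head to head, where both products are stable. A method that reads capped or mature 5′ ends sees mostly the stable products.

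The 5′ ends of transcripts were counted by WTSS-seq in 6 individual adult females and 6 individual adult males, and by WTSS-seq (2 repeat libraries) and CAGE (1 library, selected for capped RNA) in a pool of 3 adult females. Poly(A) sites were counted by WTTS-seq in 6 females and 6 males that carry the same numbers in the labels. All RNA came from whole bodies; the labels give no strain, treatment or further age, and the tables name no genes, so neither the tissue nor a gene beside a pair could be checked. Libraries held 1866839 to 6643184 counts in single WTSS-seq animals, 1935959 and 9227896 in the pool, 2641136 in CAGE and 2304469 to 6624765 in WTTS-seq. Levels below are counts per 1000000 counts (CPM) on edgeR's TMM scale, given as lowest, median and highest or as mean ± SD over 6 animals of a sex. In 1 female library (female 3) most counts lay outside the chromosomes, and it is named where it sets a value. Each whole-body value sums many tissues, so fewer cells of a type and less RNA per cell cannot be told apart.

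Divergent pairs were closely spaced. The median distance between their sites was 167 bases (quartiles 88.5 and 369.5), against 272 bases in same-strand and 161 bases in facing pairs. Of the divergent pairs, 29.2% spanned at most 100 bases and 68.2% at most 300 bases, and 6 pairs had the same position on both strands. Each site is given as a position with the start and end of its cluster of 5′ ends. How the position was chosen within the cluster is not stated. In 1134 pairs (52.9%) the clusters of both sides overlapped. Overlap was less common in facing pairs, at 29.9%. None of the 19373 same-strand neighbours of this table overlapped. How close same-strand sites can lie is thus limited by their cluster widths, and their spacing does not compare directly with that of the other kinds. Paired sites formed slightly wider clusters than other chromosome sites, with a median of 120 against 102 bases, and held more counts, with a median total of 154 against 72.0. The share of a chromosome's start sites that stood in divergent pairs ran from 5.87% on chromosome 7 to 8.91% on chromosome 9. At the limit of the rule, the 34 pairs spanning 952 to 1000 bases had a median of 0.782 CPM at the weaker and 3.99 CPM at the stronger side, and the 22 pairs spanning 1001 to 1050 bases just outside it 0.626 and 4.02 CPM.

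**Figure D1:**
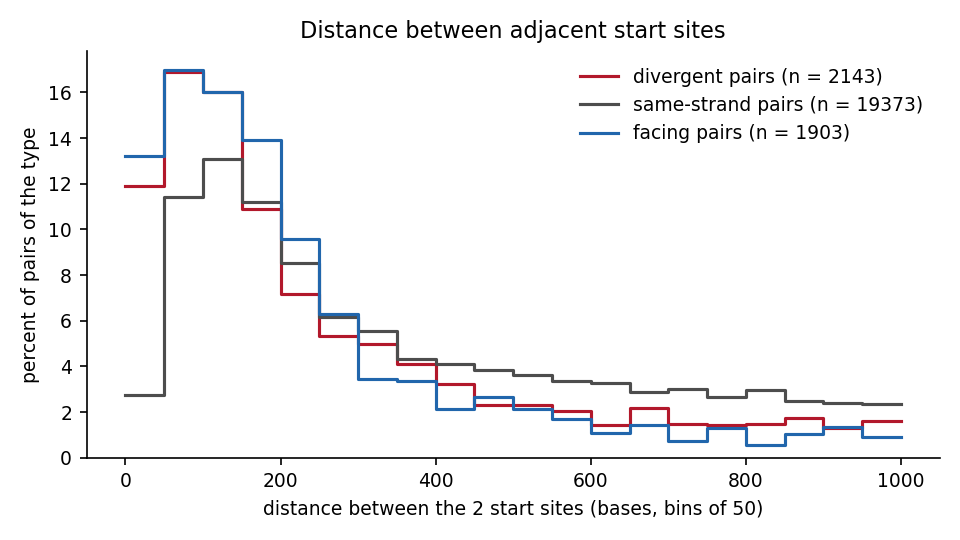
Distance between neighbouring start sites, in bins of 50 bases (x axis) as a percentage of the pairs of each kind (y axis), for 2143 divergent, 19373 same-strand and 1903 facing pairs. The divergent and facing curves are highest below 200 bases. The same-strand curve starts low, with 14.4% of same-strand pairs spanning at most 100 bases, and the clusters of same-strand neighbours never overlap.

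The sides of a divergent pair were usually unequal. Averaged over the 12 animals, the weaker side held a median of 14.8% of the pair's CPM (quartiles 4.33% and 30.9%), where an equal pair would be at 50%. The weaker side held under 10% in 837 pairs (39.1%) and 40% or more in 261 pairs (12.2%). Neither strand was preferred: the plus side was the stronger in 1062 pairs and the minus side in 1081. The median level was 0.745 CPM at the weaker and 5.44 CPM at the stronger side, so that 856 pairs reached 1 CPM at both sides and 121 reached 10 CPM. Same-strand pairs had a median weaker share of 25.2% and a median stronger side of only 1.60 CPM, and facing pairs of 17.2% and 3.75 CPM. The median weaker share of divergent pairs was 14.0% at distances up to 100 bases and 19.6% beyond 500 bases.

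Within single libraries the balance was read only over pairs with enough counts there, so its values do not compare directly with the share over all pairs. Among pairs with 20 or more counts in a library, the median share of the weaker side was 2.50%, 4.60% and 7.14% (lowest, median and highest) over the females and 2.16%, 5.01% and 6.65% over the males. The lowest female value was that of female 3, and without it the females ranged from 4.07% to 7.14%. The ranges of the sexes overlapped. This value depended on which pairs were counted: the median over the 12 animals was 4.76% with that minimum, 12.2% among pairs at 1 CPM or more on both sides and 19.2% among pairs at 10 CPM or more.

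As a group the paired sites took a larger share of the chromosome counts in the single females than in the single males. That share was 14.3%, 17.8% and 19.8% in females and 7.73%, 8.09% and 9.35% in males, and the groups did not overlap. The lowest female value was that of female 3. In the female pool the share was 14.6% and 13.4% by WTSS-seq and 19.1% by CAGE. Of all counts in the library, paired sites held 4.01%, 15.7% and 16.6% in females and 5.0%, 6.53% and 7.66% in males. Female 3 was again the lowest, and the females ranged from 14.9% to 16.6% without that library. Summed levels depended on the scaling, since with library totals alone all start sites tested shifted by a median log2 change of -0.66, towards females. On the TMM scale the plus sides added up to 62008 ± 12399 CPM in females and 33455 ± 3247 CPM in males (SD, n = 6). Female 3 had the lowest female plus sum, at 38973 CPM. The minus sides added up to 48175 ± 4251 CPM in females and 51192 ± 7445 CPM in males. Minus sides accordingly held 40.6%, 42.3% and 52.2% of the paired counts in females and 54.8%, 60.9% and 64.7% in males. The highest female value was that of female 3, and without it the females ranged from 40.6% to 45.3%. In the female pool, minus sides held 49.6% and 51.5% by WTSS-seq and 50.5% by CAGE, between that female range and the males. A few sites weighed heavily in these sums, since the 5 highest held 15.1% of the paired counts in females and 24.4% in males. The highest in females was the plus-strand site at 94955325 on chromosome 3, at 5979 ± 3200 CPM in females and 2950 ± 757 CPM in males. The highest in males was the minus-strand site at 80154404 on chromosome 1, at 914 ± 132 CPM in females and 5165 ± 1384 CPM in males. From females to males, the minus-strand sites at 12639295 (chromosome 4) and 32718597 (chromosome 9) rose from 203 to 6209 and from 1122 to 4261 CPM. The minus-strand site at 165757991 on chromosome 1 fell from 2242 to 617 CPM. The male minus sum thus rests in part on a few sites. In the test of single sites below, 365 minus sides were called female-higher and 179 male-higher. These sums are descriptions of unequally weighted sites and were not tested.

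CAGE read capped 5′ ends at the sides of the pairs. Its counts belong to the same start site table and may have helped to define the sites, so it is not an outside check on them. In the CAGE library 1059 pairs (49.4%, 95% Wilson interval 47.3% to 51.5%) had counts at both sides, 708 (33.0%) at 1 side and 376 (17.5%) at neither, where 0 counts allows up to 3. Requiring 3 counts at each side left 38.4% of the pairs. Among same-strand pairs 29.7% (29.0% to 30.3%) were counted at both sites by CAGE, and among facing pairs 13.8% (12.3% to 15.4%). Taken singly, 65.9% (64.5% to 67.3%) of the paired sites were seen by CAGE against 47.0% (46.6% to 47.4%) of the other chromosome sites. The WTSS-seq libraries of the same pool saw paired and other sites about equally often, at 69.6% against 71.3% in the first and 84.9% against 88.1% in the second. The intervals treat pairs or sites as independent draws, which they are not, and the floor covers counting error only. Neither covers variation between libraries, and CAGE has no replicate here. In 50 pairs the weaker side had 0 counts in all 12 animals. The shares of sites seen were not matched for level, and paired sites held more counts than the others (median totals of 154 and 72.0).

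The balance of a pair was only partly shared between CAGE and WTSS-seq of the same pool. Among the 1122 pairs with 20 or more counts in both the CAGE library and the second pool library, the side that was weaker over the animals held a median of 16.1% in CAGE and 7.98% in WTSS-seq. When the lesser side was chosen anew in each library the medians were 8.55% and 6.68%, and the share was higher in CAGE in 544 of the 1122 pairs. The same side was the stronger in both libraries in 878 of these pairs (78.3%). The repeat pool libraries named the same stronger side in 836 of 925 pairs (90.4%). Against the first pool library the CAGE and WTSS-seq medians were 12.1% and 3.70%, or 9.09% and 3.70% when chosen anew, over 737 pairs. Pairs that CAGE saw at both sides were closer together, with a median distance of 143 bases against 186 with 1 side seen and 308 with neither. Their stronger sides were also higher, with a median of 10.4 CPM against 4.03 and 1.74 CPM.

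The sexes were then compared at each site by edgeR's quasi-likelihood F test over all 15050 start sites that passed its filter on low counts, with p-values adjusted over all of them. Paired sites passed more often than start sites at large: 1503 of the 4280 were tested (35.1%), against 21.5% of all start sites. Of these 1503, 346 were called higher in males (23.0%) at an adjusted p under 0.05, where 33.6% of all sites tested were, and 698 higher in females (46.4%), where 36.9% of all sites tested were. The remaining 459 were not called. The median log2 change (male over female) was -0.73 at the paired sites and -0.19 over all sites tested. Without the filter, 1657 of the 4280 paired sites (38.7%) had a higher mean CPM in males, against 43.9% of all chromosome sites. Scaling mattered here: with library totals alone the median of all sites shifted by -0.66 and the paired calls became 241 male-higher and 827 female-higher (55.0%), beside male-higher and female-higher shares of 26.8% and 45.8% of all sites. The calls divided similarly on both strands, with 179 male-higher and 365 female-higher calls among 762 minus sides and 167 and 333 among 741 plus sides. Chromosome 10 had nearly equal numbers of paired sites called, 30 male-higher and 29 female-higher of 94 tested, whereas chromosome 1 had 33 and 111 of 200. The calls of all start sites were not counted by chromosome, so this contrast cannot be assigned to the paired sites.

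Both sides could be tested in 297 pairs, 1 side in 911 and neither in 935. Of the 297, both sides were called higher in females in 76 (25.6%), where 24.2% of the 1553 neighbouring pairs of any kind were. Both were called higher in males in 24 (8.08%, against 28.5% of all neighbouring pairs), and 1 side alone was called in 120. In 53 pairs (17.8%) the sides were called in opposite directions, against 5.22% of all neighbouring pairs. Opposite calls were made in 19 of 1139 same-strand pairs (1.67%) and 9 of 117 facing pairs (7.69%). The opposite share was 7.45% of 2093 divergent pairs with no filter on low counts, where same-strand and facing pairs were at 0.833% and 3.00%. With library totals alone it was 11.4%, beside 1.14% and 7.69%.

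Whether the balance of the sides itself differed between the sexes was asked in 1 fit over all neighbouring pairs, in which each animal's library is a block and the tested term is the side by sex interaction. In this fit the scaling of the libraries cancels. The balance differed by sex in 177 of the 297 divergent pairs (59.6%) at an adjusted p under 0.05 by edgeR, against 24.7% of all 1553 neighbouring pairs tested. It differed in 178 of 1139 same-strand pairs (15.6%) and in 28 of 117 facing pairs (23.9%). Among the divergent pairs the plus side was the more male-biased in 98 and the minus side in 79, and the weaker side in 94 and the stronger in 83. The sides' log2 changes differed by a median of 1.96 over all 297 divergent pairs, beside 0.60 in same-strand and 0.92 in facing pairs. Over the 177 the median was 3.06, with 142 of them at 2 or more. Over the called same-strand and facing pairs it was 2.44 and 3.56. Among called divergent pairs with no side at 0 counts in a sex, the differences ran from 1.13 to 11.26.

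These 177 pairs were of several kinds. In 53 the sides were called in opposite directions, in 58 only 1 side was called and it was higher in females, and in 27 only 1 side was called and it was higher in males. In 31 both sides were higher in females to different degrees, and in 8 both were higher in males. In 72 of them the stronger side in females was the weaker side in males. The share was similar in the other kinds, with 73 of the 178 called same-strand pairs and 11 of the 28 called facing pairs. Among pairs at 10 CPM or more on both sides, 71 of 115 divergent pairs were called (61.7%), against 46 of 295 same-strand pairs (15.6%) and 7 of 46 facing pairs (15.2%). Where the clusters of the sides did not overlap, 33 of 67 pairs were called (49.3%). Without female 3 the numbers were 233 of 403 divergent pairs (57.8%), 282 of 1490 same-strand pairs (18.9%) and 43 of 161 facing pairs (26.7%). A looser minimum of 10 counts per side brought in many low pairs and gave 464 of 1862 (24.9%), beside 4.01% of same-strand and 9.54% of facing pairs. No test was made over pairs, because all pairs are read in the same 12 libraries.

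**Figure D2:**
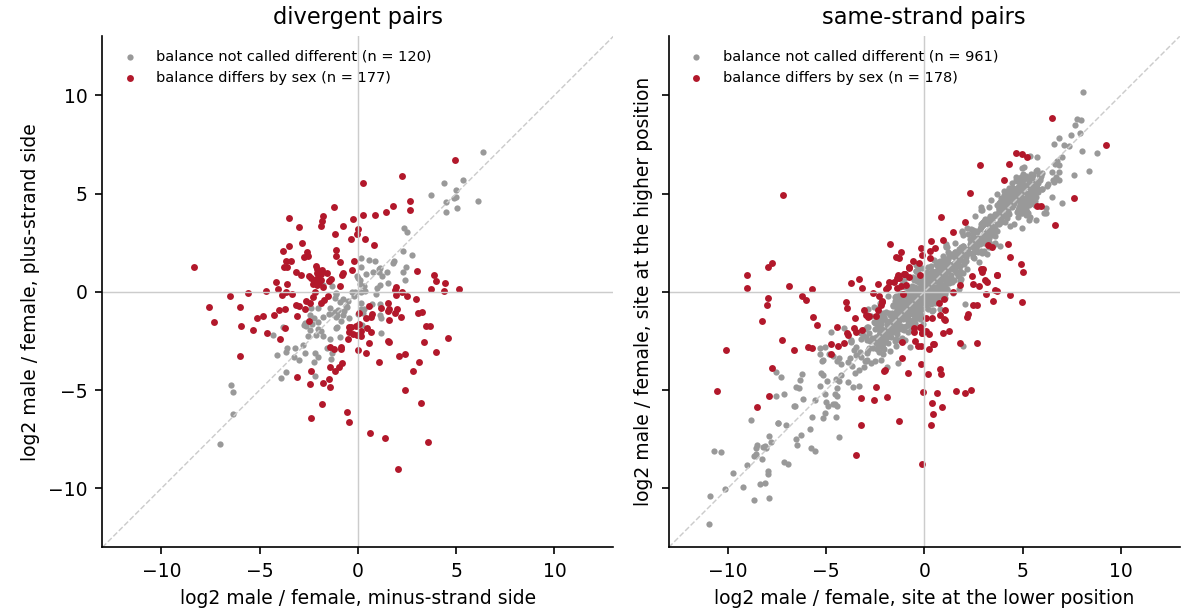
Log2 change (male over female) at both sites of each tested pair, for 297 divergent pairs (left) and 1139 same-strand pairs (right), with red points where edgeR called the balance different by sex (177 and 178 pairs). Divergent pairs scatter on all sides of the origin, while most same-strand pairs lie along the dashed line of equal change; fitted values of sites with 0 counts in a sex depend on the prior count.

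The share of divergent pairs with a sex-dependent balance changed little with distance up to 500 bases. It was 62.8% of 94 pairs up to 100 bases, 55.7% of 70 from there to 200 bases, 60.8% of 51 up to 300 bases and 70.4% of 54 up to 500 bases. Beyond 500 bases it was 35.7% of 28 pairs. Same-strand pairs stayed between 11.8% and 22.1% over the same bins. Facing pairs reached 39.0% of 41 at up to 100 bases and no more than 20.5% in the wider bins.

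**Figure D3:**
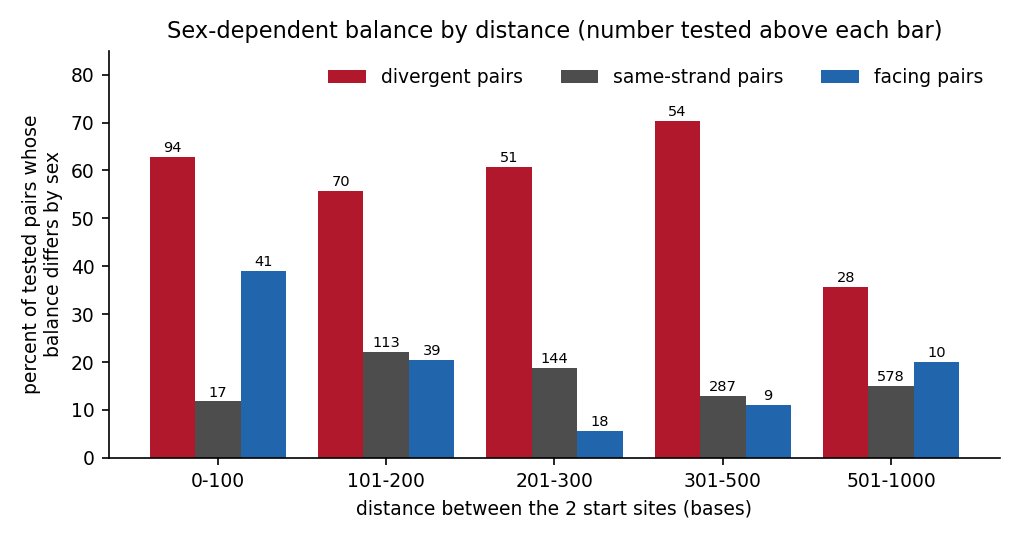
Percentage of tested pairs whose balance differed by sex (y axis, edgeR adjusted p under 0.05) in 5 classes of distance between the sites (x axis, bases), by kind of pair, with the number of pairs tested above each bar. The divergent bars are the highest in each class, from 35.7% to 70.4%, and the bars over 9, 10, 17 and 18 pairs rest on few pairs.

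The pairs with the highest weaker sides show both patterns. The strongest of all lay on chromosome 9, with the minus-strand site at 32718597 and the plus-strand site at 32718978. Its minus side was at 533, 1052 and 1762 CPM in females and at 3066, 4146 and 5401 CPM in males. Its plus side was at 1616, 3552 and 4897 CPM in females and at 1967, 2976 and 4338 CPM in males. The minus side thus separated the sexes while the plus side overlapped. By edgeR the minus side rose by 1.93 (SE 0.32, adjusted p = 4.64e-05) in males on the log2 scale, while the plus side, at -0.19 (SE 0.31, adjusted p = 0.607), was not called. The plus side held 75.8% ± 1.76 of the pair in females and 41.4% ± 5.37 in males (SD, n = 6), a difference of the sides of -2.16 (SE 0.28, edgeR adjusted p = 2.32e-05). The sexes did not overlap in this share, with 73.5% as the lowest female share and 46.7% as the highest male share.

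The next highest, on chromosome 4 at 87238096 and 87238151, was higher in females on both sides but to unequal degrees. Its minus side was at 205, 251 and 591 CPM in females and at 30.5, 54.9 and 117 CPM in males. Its plus side was at 701, 1207 and 1745 CPM in females and at 23.0, 51.4 and 58.4 CPM in males. Neither side overlapped between the sexes. The edgeR log2 changes were -2.46 (SE 0.40, adjusted p = 4.41e-05) and -4.69 (SE 0.35, adjusted p = 3.86e-08). Their difference was -2.21 (SE 0.35, edgeR adjusted p = 1.31e-04), and the plus share was 78.4% ± 6.82 in females and 45.0% ± 6.62 in males.

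In the other 4 of the 6 pairs with the highest weaker sides the balance was not called different by sex. The pair on chromosome 8 at 52541119 and 52541535 had a plus share of 48.9% ± 5.77 in females and 50.8% ± 9.37 in males. Both its sides were lower in males by log2 changes of -1.15 (SE 0.29) and -1.03 (SE 0.26) at edgeR adjusted p-values of 0.00185 and 0.00198. Its plus side lost the call without both libraries headed Male4 (-0.66) and in the numbered libraries alone (-0.72, or -0.73 with a replicate block). Its minus side lost the call with that block (-0.96). On chromosome 2 at 90827989 and 90828161 both sides were also lower in males, by -1.11 and -1.85 (edgeR adjusted p = 0.00304 and 3.53e-05), the former call being lost without both libraries headed Male4 (-0.78), and the sides differed by -0.88 (SE 0.35, edgeR adjusted p = 0.0855), a difference that DESeq2 called at -0.87. On chromosome 6 the pair at 66008928 and 66009104 was called on neither side, with changes of 0.43 and 0.89 (edgeR adjusted p = 0.247 and 0.0712). Its plus side was called male-higher under 11 alternatives, at 0.76 without female 3, at 1.15 to 1.21 without a library headed Male3 or Male4, at 1.04 with RLE size factors or DESeq2 and at 1.13 by limma, and its minus side in the numbered libraries alone (0.97). The pair at 33458807 and 33459249 on the same chromosome varied more between animals than between sexes. Its plus share ran from 10.4% to 94.0% in females and from 6.96% to 85.2% in males. Female 5 alone, at 760.3 CPM, raised the female mean of its minus side from 62.4 to 179 CPM. Without that library this side was called male-higher, at 2.15. CAGE of the female pool counted 0 ends at this minus side, where the WTSS-seq libraries of that pool counted 296 and 784.

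Of the named pairs with opposite calls, the one on chromosome 2 at 40280764 and 40281038 went from even use of the strands in females to 1 strand in males. The minus side was at 48.5, 60.0 and 95.9 CPM in females and at 337, 527 and 952 CPM in males. The plus side was at 52.8, 67.5 and 93.1 CPM in females and at 3.16, 5.75 and 9.37 CPM in males. Females thus used both strands about equally, and males used almost only the minus strand. By edgeR the minus side rose by 3.10 (SE 0.32, adjusted p = 5.03e-07) and the plus side fell by 3.57 (SE 0.33, adjusted p = 1.90e-07) on the log2 scale in males. The plus share was 51.8% ± 7.51 in females and 1.09% ± 0.468 in males, and the sides differed by -6.72 (SE 0.43, edgeR adjusted p = 2.49e-08). CAGE of the female pool counted 576 minus and 450 plus ends at this pair.

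In other pairs the plus strand had few or no counts in males. On chromosome 1 the plus side at 145755046 was at 689.9, 869 and 1365 CPM in females and at 0, 1.36 and 4.31 CPM in males, a log2 change of -9.03 (SE 0.65, edgeR adjusted p = 2.74e-08). The minus side of that pair, at 145754805, was at 1.69, 1.98 and 3.54 CPM in females and at 6.03, 9.70 and 12.8 CPM in males, a log2 change of 2.03 (SE 0.34, edgeR adjusted p = 4.98e-05). Here the strong strand of females kept 32 counts over all males, and the weak strand was higher in males. On chromosome 10 the plus side at 16617502 had 196 female and 0 male counts, at least 42-fold higher in females against a floor of 3 counts over all males. Its minus partner at 16617396 was at 3.06 ± 1.70 CPM in females and 37.5 ± 10.8 CPM in males (log2 change 3.58, SE 0.41, edgeR adjusted p = 1.16e-06). On chromosome 1 the plus side at 27007523, at 2.66, 3.74 and 16.3 CPM in females, had 0 male counts and was at least 38-fold higher in females, while its minus partner at 27006696, 827 bases away, was at 51.8 ± 20.4 CPM in females and 133 ± 28.6 CPM in males (log2 change 1.36, SE 0.31, edgeR adjusted p = 8.88e-04, and 0.61 without a call under library totals). Without female 3 the female mean at 27007523 was 3.56 in place of 5.69 CPM. On chromosome 9 the plus side at 53688767 had 212 female and 3 male counts, a ratio of 53.6 (95% exact interval 18.1 to 262, counting error only), and its minus partner at 53688632 was at 1.87 ± 1.13 CPM in females and 17.9 ± 10.9 CPM in males (log2 change 3.21, SE 0.59, edgeR adjusted p = 1.31e-04). CAGE of the female pool counted 824 ends at the plus side at 145755046, 200 at 16617502, 0 at 27007523 and 1 at 53688767. The WTSS-seq libraries of that pool counted 17 and 15 at 27007523 and 13 and 15 at 53688767.

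In the reverse arrangement the minus strand was the one that was lower in males. On chromosome 3 the minus side at 112337687 was at 12.2, 27.2 and 42.3 CPM in females and had 1 count over all males, a ratio of 579.8 (95% exact interval 104 to 22932, counting error only). Its plus partner at 112337777 was at 23.9, 30.0 and 47.1 CPM in females and at 47.4, 72.9 and 108 CPM in males, a log2 change of 1.26 (SE 0.28, edgeR adjusted p = 8.51e-04). With library totals alone this plus side was no longer called, at 0.62. On chromosome 2 the minus side at 123956356 had 1006 female and 3 male counts, a ratio of 255 (95% exact interval 86.8 to 1236), while the plus side at 123956547 was at 228 ± 54.4 CPM in females and 133 ± 26.3 CPM in males (log2 change -0.78, SE 0.25, edgeR adjusted p = 0.0115). The call of that plus side was lost when male 1 (-0.68), male 5 (-0.62) or a library headed Male3 (-0.56) or Male4 (-0.57 for either) was left out. In the numbered libraries alone the change was only -0.15, or -0.14 with a replicate block, without a call. On chromosome 9, at 78637594 and 78637733, the minus side fell from 68.4 ± 12.1 to 8.49 ± 1.55 CPM and the plus side rose from 4.41 ± 3.80 to 45.9 ± 22.2 CPM from females to males, and the sides differed by 6.59 (SE 0.59, edgeR adjusted p = 4.27e-07). On chromosome 6, at 23213521 and 23213608, the plus share was 4.39% ± 3.32 in females and 88.0% ± 6.84 in males, with a difference of the sides of 7.11 (SE 0.54, edgeR adjusted p = 1.06e-07). Female 3 had 39.0 CPM at that minus side, and the female mean of 12.9 CPM was 7.66 CPM without it. CAGE of the female pool counted 374 ends at 112337687, 510 at 123956356, 162 at 78637594 and 89 at 23213521. At their plus partners it counted 6, 484, 10 and 0 ends in the same order. The WTSS-seq libraries of that pool counted 114 and 664 at the plus side at 112337777.

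**Figure D4:**
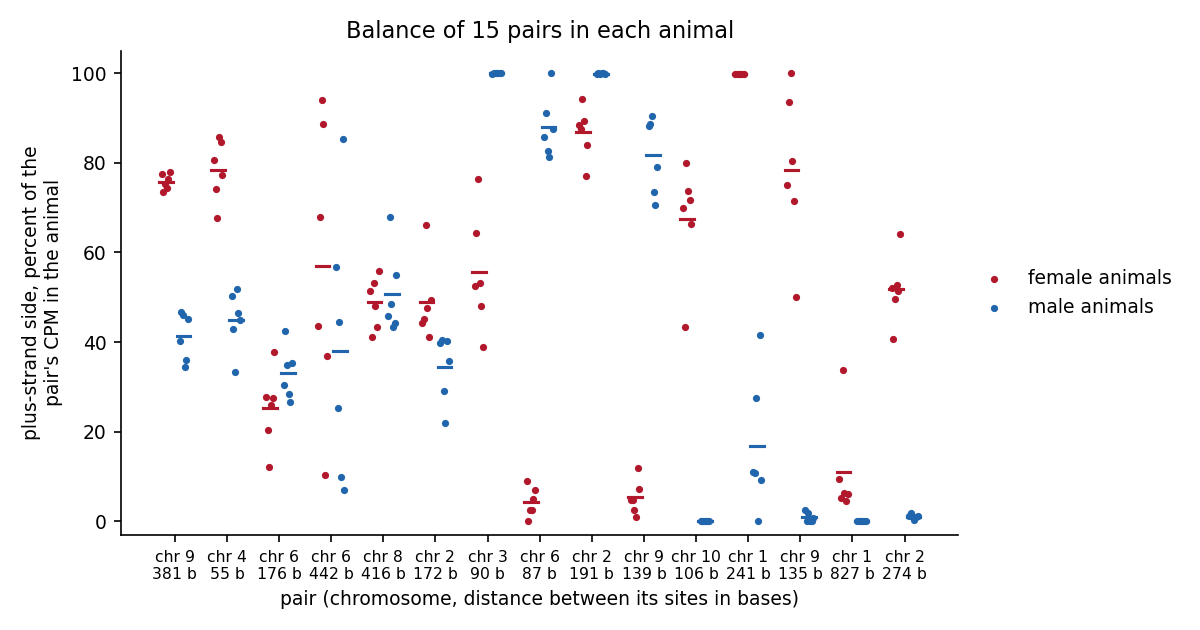
Share of the plus-strand side in the CPM of a pair (y axis, percent) in each of 6 females (red) and 6 males (blue), with the mean as a bar, for 15 named pairs labelled by chromosome and the distance between their sites in bases (b). The first 6 pairs have the highest weaker sides, of which the first and the second were called; in the last of these 6 the sexes lie just apart (lowest female 41.1%, highest male 40.5%) with no call. The other 9 have a called sex-dependent balance and were chosen in these same animals for large differences in balance or large opposite changes. No male overlaps a female in any of them, which that choice favours.

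Sites a few bases apart could move in opposite directions. On chromosome 9 the minus-strand site at 18531527 and the plus-strand site at 18531537, 10 bases away, had overlapping clusters of 5′ ends. The minus side was at 21.0, 34.3 and 65.5 CPM in females and at 2.59, 11.1 and 14.2 CPM in males. The plus side was at 2.90, 5.53 and 13.6 CPM in females and at 79.4, 103 and 139 CPM in males. The sexes were apart on both strands, in opposite order. The edgeR log2 changes were -1.80 (SE 0.38, adjusted p = 4.51e-04) and 3.86 (SE 0.39, adjusted p = 3.96e-07), and they differed by 5.81 (SE 0.45, edgeR adjusted p = 1.16e-07). CAGE of the female pool counted 188 ends on the minus and 2 on the plus side. In contrast, a pair with the same position on both strands, at 60541269 on chromosome 9, was not called different in balance, at -0.72 (SE 1.29, edgeR adjusted p = 0.790). It is 1 of 6 such pairs. Its plus side was at 125 ± 41.6 CPM in females and 254 ± 50.2 CPM in males (log2 change 1.02, SE 0.28, edgeR adjusted p = 0.00367, not called under library totals). Its minus side was dominated by single animals, with female 2 at 107 CPM and male 6 at 284 CPM, and without female 2 it was called male-higher, at 2.69.

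In the 76 female-higher and 24 male-higher pairs given above both strands were called in the same direction. On chromosome 3 the sites at 130811549 and 130811574 were at 1.05 ± 0.567 and 0.877 ± 0.437 CPM in females and at 40.8 ± 10.9 and 45.4 ± 14.1 CPM in males. The edgeR log2 changes were 5.35 (SE 0.55, adjusted p = 4.67e-07) and 5.66 (SE 0.42, adjusted p = 3.31e-08). On chromosome 8 the sites at 7200849 and 7200856 were at 3.73 ± 4.04 and 1.07 ± 1.54 CPM in females and at 302 ± 472 and 137 ± 173 CPM in males. Much of that male mean came from 1 library headed Male4, at 1248 and 474 CPM, without which the male means were 112 and 69.8 CPM. On chromosome 10 the sites at 39637895 and 39638340 rose by 5.01 (SE 0.41, edgeR adjusted p = 6.77e-08) and 5.17 (SE 0.93, edgeR adjusted p = 1.17e-04) in males, and the difference of the sides, 0.08, was called only with the replicate block, at 3.89. CAGE of the female pool counted 4 ends at 39637895, where the WTSS-seq libraries of that pool counted 95 and 1618. Those pool libraries held 1935959 and 9227896 counts in all. The 6 single females together had 398 counts at that site, at 6.68 to 26.7 CPM. The pool took no part in the test of the sexes.

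In the other direction, the sites at 35596744 and 35596866 on chromosome 1 had 117 and 184 counts over the females and 0 over the males, at least 27-fold and 45-fold higher in females against a floor of 3 counts over all males. The sites at 38327252 and 38327342 on chromosome 10 were at 37.0 ± 35.9 and 88.5 ± 26.3 CPM in females and at 0.468 ± 0.647 and 1.57 ± 2.25 CPM in males. Female 3 set part of the former mean, which was 22.4 CPM without it. On chromosome 5 the sites at 34081976 and 34082067 were lower in males, by log2 changes of -6.35 (SE 0.67) and -5.10 (SE 0.52) at edgeR adjusted p-values of 5.27e-07 and 4.13e-07. The difference of these sides, 1.23 (SE 0.97, edgeR adjusted p = 0.454), was called without both libraries headed Male4 (2.70), without female 3 as well (3.01) and in the numbered libraries alone (4.05, or 4.14 with the block). CAGE counted 316 and 278 ends at these last sites and 2 and 11 at the pair on chromosome 10.

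The 3 widest pairs with 10 CPM or more at both sides behaved unequally. On chromosome 4 the minus side at 12639295 was at 32.2, 169 and 399.6 CPM in females and at 603, 6249 and 12131 CPM in males, one of the highest paired sites of all in males. CAGE of the female pool counted 1 end at this minus side, where the WTSS-seq libraries of that pool counted 166 and 227. Its plus partner at 12640180, 885 bases away, was at 0, 0.731 and 1.94 CPM in females and at 44.1, 115 and 143 CPM in males. Both were higher in males by edgeR, by 4.93 (SE 0.81, adjusted p = 4.78e-05) and 6.68 (SE 0.56, adjusted p = 7.04e-08). Their difference, 2.24 (SE 0.72, edgeR adjusted p = 0.0306), was no longer called without female 4 (1.93), female 5 (2.21), female 6 (2.32), male 1 (2.24) or the second library headed Male4 (1.98). On chromosome 8 the sites at 49147062 and 49147931 were both higher in females, by log2 changes of -4.11 (SE 0.60) and -3.22 (SE 0.41) at edgeR adjusted p-values of 1.46e-05 and 3.64e-06, with no called difference between them (0.90, SE 0.79, edgeR adjusted p = 0.520). On chromosome 5 the sites at 110078086 and 110079073 gave -1.79 (SE 0.73, edgeR adjusted p = 0.0366) and 0.35 (SE 0.29, edgeR adjusted p = 0.280), and the former call was lost without female 2 (-1.77), female 4 (-1.22) or any male library except male 6 (-1.71 to -1.44). That call was also lost with RLE size factors (-1.65), by limma (-1.20) and in the numbered libraries alone (-0.51, or -0.56 with a replicate block). Female 4 alone, at 780 CPM, raised the female mean of that minus side from 168 to 269.8 CPM, and the difference of the sides, 1.66 (SE 0.87, edgeR adjusted p = 0.217), was called without female 3, at 2.26. CAGE of the female pool counted 0 ends at that minus side, where the WTSS-seq libraries of that pool counted 157 and 296.

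The other ends of the transcripts were read by WTTS-seq, which the pair rule did not use. A poly(A) site lay downstream on the same strand within 20000 bases of both sides in 1182 pairs (55.2%), of 1 side in 887 (41.4%) and of neither in 74. Both sides had one in 14.4% of pairs within 5000 bases and in 80.4% within 50000 bases. Of the paired sites 75.9% had such a poly(A) site, against 85.4% of the other chromosome sites. The link rests on position only, and the nearest poly(A) site need not belong to the same transcript. Of the 605 nearest poly(A) sites that could be tested, 90 were called higher in males (14.9%) by edgeR, where 25.8% of all poly(A) sites tested were, and 212 higher in females (35.0%), where 24.9% of all tested were. With library totals alone these shares were 8.43% and 59.2%, and all poly(A) sites shifted by a median of -1.24. Pairs with a poly(A) site on both sides had a sex-dependent balance at their starts in 143 of 225 cases (63.6%), pairs with 1 such side in 29 of 66 (43.9%) and pairs with none in 5 of 6.

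The poly(A) sites with the most counts downstream of each side gave a broader view, chosen in place of the nearest ones after the data had been seen. In 106 pairs both start sites and both such poly(A) sites were tested. Among the 69 of them whose starts had a sex-dependent balance, the difference of the sides had the same sign at the poly(A) sites in 60 (87.0%), and among the other 37 in 20. All 19 pairs with opposite calls at their starts had the same sign at their poly(A) sites, and in 7 of these the poly(A) sites were also called in opposite directions, each time the same way as the starts. By the numbers in the labels both assays read the same animals, in separate libraries. For 3 of the male start columns the number is not settled. With the nearest poly(A) site only 13 pairs could be compared, of which 7 had a sex-dependent balance, 6 of them with the same sign. On chromosome 2 the nearest poly(A) site downstream of the plus side at 40281038, at 40292466, was at 40.6 ± 16.3 CPM in females and 1.38 ± 1.40 CPM in males (log2 change -4.94, edgeR adjusted p = 2.24e-04), the same direction as its start site. On chromosome 1 the poly(A) site at 27001496, downstream of the minus side at 27006696, was at 12.6 ± 4.58 CPM in females and 81.5 ± 53.7 CPM in males (log2 change 2.70, edgeR adjusted p = 3.01e-04), again the direction of its start site. Among the named pairs 10 nearest poly(A) sites were tested and 6 were called. Over all poly(A) sites tested, 25.8% were called male-higher and 24.9% female-higher. Many named pairs were chosen for large sex differences in these animals. Of the 6 called, 5 had the sign of their start site. The exception was the poly(A) site at 110079082 on chromosome 5, with 4003 counts over the females and 192 over the males (log2 change -3.49, edgeR adjusted p = 0.0222), whose start site 9 bases upstream, at 110079073, was not called at 0.35. It lay within the cluster of 5′ ends of that start. Of the poly(A) sites with the sign of their start, the one at 12640253 on chromosome 4 lay only 73 bases downstream. Whether either of these ends a transcript from its start was not tested.

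**Figure D5:**
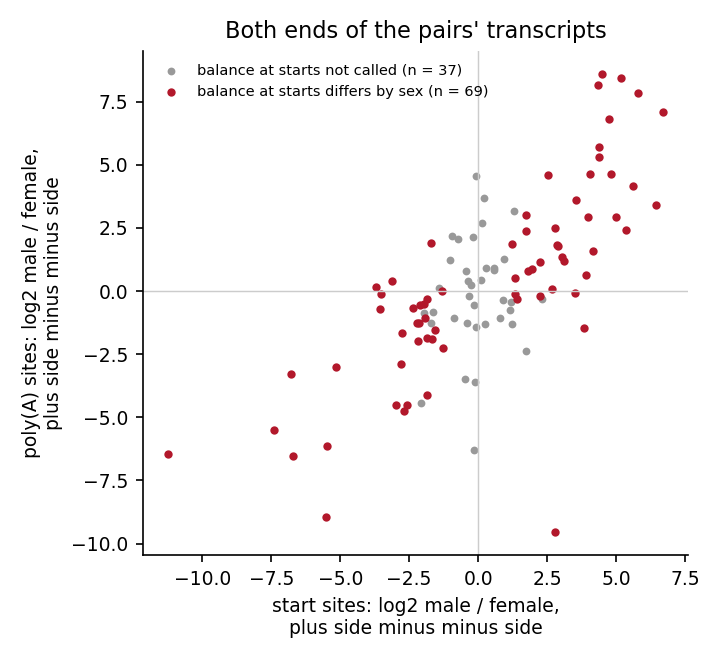
Difference of the sides' log2 changes (plus side minus minus side, male over female) at the start sites (x axis) and at the poly(A) site with the most counts within 20000 bases downstream of each side (y axis), for 106 divergent pairs tested at all 4 sites. Of the 69 red points, whose balance at the starts differed by sex, 60 lie at lower left or upper right, where both differences have the same sign; the 37 grey points were not called at the starts.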

How the data were processed

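Whole-number counts of each site in each library were deposited by the authors, per the file headers and the values, for start sites in 15 libraries and for poly(A) sites in 12; 3 of the 30 labelled libraries were not used here. In both tables the smallest total per site is 25. No source used here states the aligner, the clustering, the build or other filters. Positions are given 1-based, from 0-based tables. A gene table of another assembly was not used, so no gene, exon or sequence is given.

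Counts were tested with edgeR 4.0.16 (R 4.3.3) by its quasi-likelihood F test between 6 females and 6 males of each assay, with TMM scaling, filterByExpr by sex and Benjamini-Hochberg adjustment over all sites tested at 0.05. Standard errors are the log2 change divided by the square root of F. For the balance of a pair, each pair of neighbouring sites gave 1 feature with 24 columns (side by library), the model held library, side and side by sex, and adjustment ran over all 1553 pairs tested. The procedure was tested on simulated data. Levels are CPM on the TMM scale, whose factors lay between 0.528 and 1.63 in female and 0.660 and 0.868 in male WTSS-seq libraries. The replicates are separate animals per the labels. Among the male start columns, 3 are headed Male3, Male4 and Male4 while the labels list males 2, 3 and 4, so these 3 were used as males without a number, and the male n of 6 rests on the labels. No libraries of a sex were alike within counting noise.

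Pairs named in the text are the 6 with the highest weaker side; the 4 largest called differences in balance in each direction, among pairs at 5 CPM or more on both sides in at least 1 sex; the 4 opposite and the 3 male-higher and 3 female-higher pairs with the largest smaller change; and the 3 closest and 3 widest pairs at 10 CPM on both sides. The members, the rule and the tests were chosen with earlier results of these data known. Alternatives were RLE size factors, library totals, no filter, DESeq2 1.42.0, limma 3.58.1, a fold minimum, other distances and minimums, a replicate block, and the omission of each library. Python 3.11.15, pandas 2.3.3 and scipy 1.17.1 did the rest.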

Additional observations from a re-analysis of the deposited data

Results flagged for a closer look

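In 19 of 112 groups of 6 animals examined (the CPM of the 26 named pairs and the library shares), 1 animal stood apart from the rest by Dixon's test. Its chance rate of about 1 in 20 holds for independent groups of normally distributed values. These groups share animals and many hold skewed CPM, so their number does not compare directly with that rate. Female 3 stood apart most often. Paired sites held 4.01% of its counts, with the next female at 14.9%. It was the lowest female at the plus side on chromosome 6 at 66009104 (14.9 CPM, next 120.5) and at the minus side on chromosome 2 at 90827989 (59.6 CPM, next 149). It was the highest at the minus side on chromosome 6 at 23213521 (39.0 CPM, next 10.9), at the plus side on chromosome 1 at 27007523 (16.3 CPM, next 4.54), at the plus side on chromosome 8 at 7200856 (4.07 CPM, next 1.16) and at the minus side on chromosome 10 at 38327252 (110.1 CPM, next 26.7).

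Other females stood apart at single sites. Female 5 was highest at the minus sides on chromosome 6 at 33458807 (760.3 CPM, next 111) and on chromosome 9 at 18531527 (65.5 CPM, next 36.0). Female 4 was highest at the plus side on chromosome 6 at 33459249 (595 CPM, next 122) and at the minus side on chromosome 8 at 7200849 (11.5 CPM, next 3.73). Female 2 was highest at the plus side on chromosome 2 at 123956547 (329.8 CPM, next 228) and at the minus side on chromosome 9 at 60541269 (107 CPM, next 25).

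Among males, a library headed Male4 was highest at the plus side on chromosome 6 at 33459249 (353 CPM, next 64.7), at both sides on chromosome 8, at 7200849 (1248 CPM, next 249) and 7200856 (474 CPM, next 169), and at the plus side on chromosome 10 at 38327342 (6.03 CPM, next 1.33). Male 6 was highest at the minus side on chromosome 9 at 60541269 (284 CPM, next 92.2). Male 1 alone had a count at the minus side on chromosome 3 at 112337687 (0.266 CPM, next 0).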

How the results depend on the processing

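The share of pairs with a sex-dependent balance was 59.6% of 297, and moved to 24.9% (12.7% with the plus and 12.2% with the minus side more male) when 10 counts at each side replaced the filter. The replicate numbers did not pair the samples (correlations of deviations 0.107, -0.202 and -0.0335 for numbers 1, 5 and 6 in WTSS-seq, and none of these correlating best with its own number; -0.0785 to 0.114 in WTTS-seq, where number 5 alone did). Among the numbered libraries a replicate block gave 39.7% (20.9% plus side more male) and 10.2% opposite calls, against 46.6%, 25.1% and 14.4% in the same libraries with no block. Opposite calls were 11.4% with library totals and 7.45% without the filter. Both sides were female-higher in 15.0% without the filter and in 16.4% of pairs whose clusters were apart. Poly(A) sites were male-higher in 8.43% and female-higher in 59.2% with library totals, and female-higher in 20% without the filter. The median weaker share was 4.76%, and 12.2% at 1 CPM, 19.2% at 10 CPM (added after seeing the data), 6.50% with a minimum of 10 counts and 3.14% with 50. CAGE counts at both sides held for 38.4% with 3 counts, which is also 1 CPM or more.

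With each library left out, male-higher sites were 21.0% to 24.5% and female-higher sites 43.1% to 48.2%; pairs with both sides male-higher 6.77% to 10.3%, both female-higher 22.0% to 28.8% and opposite 14.2% to 18.4%; sex-dependent balance 51.8% to 57.8% (28.0% to 31.5% plus and 22.9% to 26.6% minus side more male); and poly(A) sites 12.5% to 15.6% male-higher and 29.2% to 35.3% female-higher. Of the 177 pairs, 176 were also called by DESeq2, 169 by limma, 141 in the numbered libraries and 121 there with the block, all in the same direction.

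Of 1611 values of named sites and pairs under an alternative, 1516 kept direction and call, 39 lost and 23 gained a call, and 33 changed sign, all uncalled in the analysis reported. The plus side at 32718978 was 0.40 with the block and without it in the numbered libraries, 0.18 without the libraries headed Male4, 0.03 without female 3 as well, and -0.31 to 0.11 with 1 library left out. With library totals the sites at 66008928, 33458807 and 110079073 were -0.35, -0.03 and -0.26. The site at 33458807 was -0.96 with the block and -1.39 without it, and its pair's difference 0.92 and 0.88; its partner at 33459249 was -1.30 to 0.30 with 1 library left out. With 1 library left out, differences of the sides were -0.09 to 0.20 at 52541119, -0.03 to 0.51 at 130811549, -0.39 to 1.06 at 39637895 and -0.52 to 0.98 at 38327252. With and without the block they were -0.55 and -0.14 at 7200849 and -0.15 and -0.06 at 130811549, where limma gave -0.04. The cause was not tested. Depth limits the weaker sides, of which 313 of 2142 could be tested.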
